A study of Schmidtea mediterranea with 11 samples.

Results

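The comparison set whole worms of Schmidtea mediterranea injected with double-stranded RNA against Smed-H2B beside control worms, with 1 Smed-H2B library and 3 control libraries among the 11 libraries of the series. All worms were adults of the asexual Berlin-1 strain, which was derived from 1 individual, so the animals share one genetic origin. control(RNAi) worms were injected with dsRNA of gfp, a gene planarians lack, and their libraries were made from polyA RNA at days 20, 25 and 30. The Smed-H2B(RNAi) library has no stated day, and neither does the Smedwi-2(RNAi) library, the only other one without a day. The remaining libraries come from bruli(RNAi) worms and from worms in which the 4 mbnl genes were knocked down together, each with 1 library at days 20, 25 and 30. With 1 Smed-H2B library the comparison has no replicate on the knockdown side and every difference below is a description without a test. Whether the animals of a library were pooled, and how many, is not given in the sources used here. Knockdown and an unstated time after injection cannot be told apart.

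Planarians regenerate from neoblasts, the only dividing somatic cells of the animal, which are lost when they are irradiated. H2B is a core histone, and dividing cells need new histones whenever they copy their DNA. In planarians Smed-H2B mRNA is found in neoblasts, and its knockdown is used as a way to deplete the stem cells without irradiation. Neoblasts are rich in RNA binding proteins (RBPs), among them piwi and vasa proteins of the chromatoid bodies, their germ granules. Their first postmitotic descendants on the way to epidermis carry prog genes as markers.

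The table holds 26562 transcripts of an assembled transcriptome, and 15513 had a mean log2(TPM+1) above 1.5 over the 4 libraries compared. TPM is the share of a library that a transcript takes after division by its length, scaled so that each library sums to 1000000. A transcript was counted as lower or higher only where the Smed-H2B library lay more than 0.7 on the log2(TPM+1) scale outside the range of all 3 controls. By this rule 557 transcripts (3.59% of those kept) were lower after Smed-H2B knockdown, 278 (1.79%) were higher and 14678 were neither. The 2 directions were not of equal size. The distance from the range exceeded 1 for 220 of the lower and 89 of the higher transcripts. The median difference from the control mean was 0.02 over all transcripts kept, -1.05 over the lower and 1.06 over the higher ones.

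**Figure D1:**
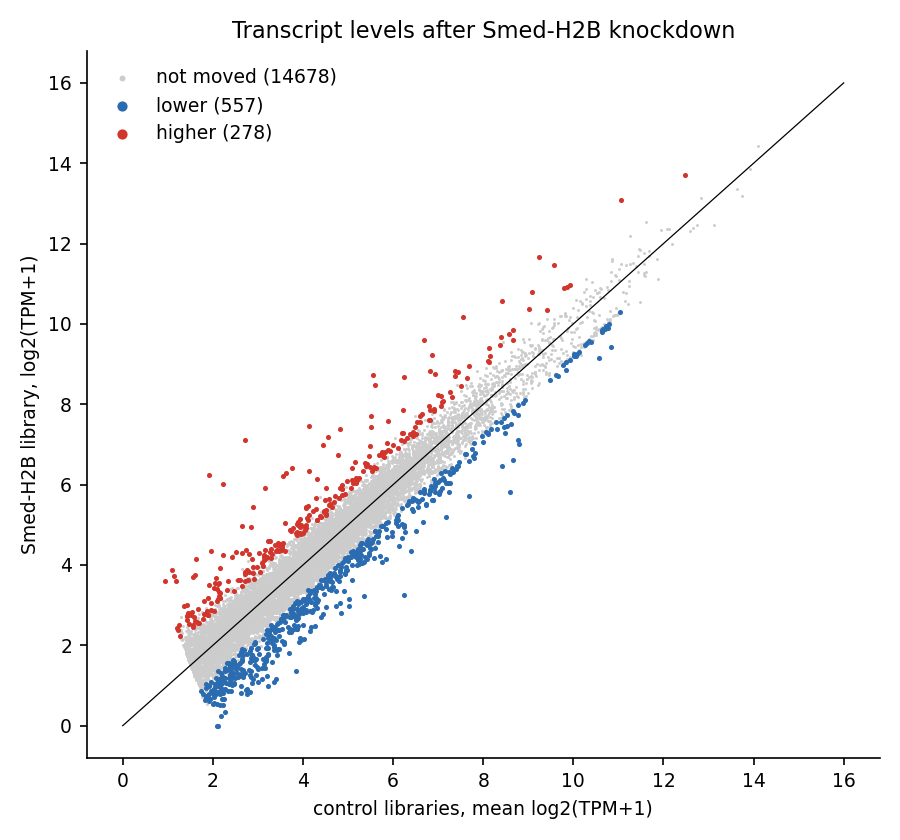
Level of each of the 15513 transcripts kept in the Smed-H2B library (vertical axis, log2(TPM+1)) against the mean of the 3 control libraries (horizontal axis, log2(TPM+1)). The 557 lower transcripts (blue) and the 278 higher ones (red) lie on both sides of the line of equality at low and at high levels.

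The lower transcripts took 3.06% of all TPM in the Smed-H2B library and 5.78% to 6.11% in the controls. The higher ones took 6.77% after knockdown and 2.34% to 2.86% in the controls. The share of lower transcripts was largest at the top of the expression range. It was 6.15% among transcripts with a mean log2(TPM+1) above 7, 3.13% between 5 and 7, 2.97% between 3 and 5, and 4.27% between 1.5 and 3. The share of higher transcripts went from 1.51% to 1.87% in the 3 lower bins and was 3.83% in the top one. The range of the 3 controls themselves had a median of 0.28 and exceeded 0.7 for 12.1% of the transcripts. Its median was 0.20 for the lower and 0.36 for the higher transcripts.

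Whole reads could be recovered from the TPM values for 25755 of the 25766 transcripts above 0, to within 0.01 read. They came to 7824542 for the Smed-H2B library and to 5584882 to 7741854 for the controls. By recovered reads the knockdown library was thus not shallower than its controls, though the control of day 25 came close to it. Transcripts without recovered reads, among them the abundant comp93_c0_seq1, are left out of these sums. Across transcripts, which are not independent replicates, Pearson's r between the Smed-H2B library and each control was 0.962 to 0.966, and 0.979 to 0.987 among the controls. All of these libraries share one transcriptome and one way of counting. Of the moved transcripts, 165 lower and 68 higher ones had a mean under 50 reads. The transcript of the Smed-H2B gene itself is not paired with its name in the sources used here, and its own level after knockdown was not analysed here.

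Both neoblast markers used here were lower after Smed-H2B knockdown. smedwi-1 (comp659_c0_seq1), which codes for a piwi protein made in neoblasts, had 193, 206 and 212 TPM in the controls of days 20, 25 and 30 and 51.2 TPM in the Smed-H2B library. The controls lay close together, at 204 ± 9.73 TPM (SD, n = 3), and the knockdown value was 3.98-fold lower than their mean. Its 840 reads give a 95% exact Poisson interval of 47.8 to 54.8 TPM, which covers counting error only. pcna (comp1920_c0_seq1), the sliding clamp of DNA replication, was at 56.4, 55.2 and 56.9 TPM in the controls and at 16.7 TPM after knockdown, 3.36-fold below the control mean. For both genes no control came near the knockdown library, and the distance from the control range was -1.89 for smedwi-1 and -1.67 for pcna on the log2 scale.

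Markers of 2 neoblast subclasses followed in the same direction. soxP-2 (comp8483_c0_seq1), a transcription factor gene of the sigma class, had 11.5, 11.7 and 12.8 TPM in the controls and 3.99 TPM after Smed-H2B knockdown. p53 (comp5563_c0_seq1), a marker of the zeta class that gives rise to epidermis, had 41.8, 39.2 and 39.1 TPM in the controls and 15.8 TPM after knockdown. Their distances from the control range were -1.33 and -1.26. soxP-2 was thus 3-fold and p53 2.54-fold below the control mean, a smaller distance than that of smedwi-1 and pcna. This order rests on 1 Smed-H2B library and was not tested.

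All 3 markers of early epidermal progeny were also lower. prog-1 (comp332_c0_seq1) stood at 391, 268 and 381 TPM in the controls and at 87.1 TPM after Smed-H2B knockdown. prog-1-1 (comp478_c0_seq1) stood at 487, 319 and 419 TPM in the controls and at 97.1 TPM after knockdown. Both genes had their lowest control at day 25, and the knockdown library lay far below that control as well. prog-2-1 (comp69_c0_seq1), the most abundant of the markers, had 1985, 1695 and 1771 TPM in the controls and 683 TPM after knockdown. The distances from the control range were -1.61, -1.71 and -1.31. prog-1 and prog-1-1 are close relatives, and whether they share reads was not tested.

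**Figure D2:**
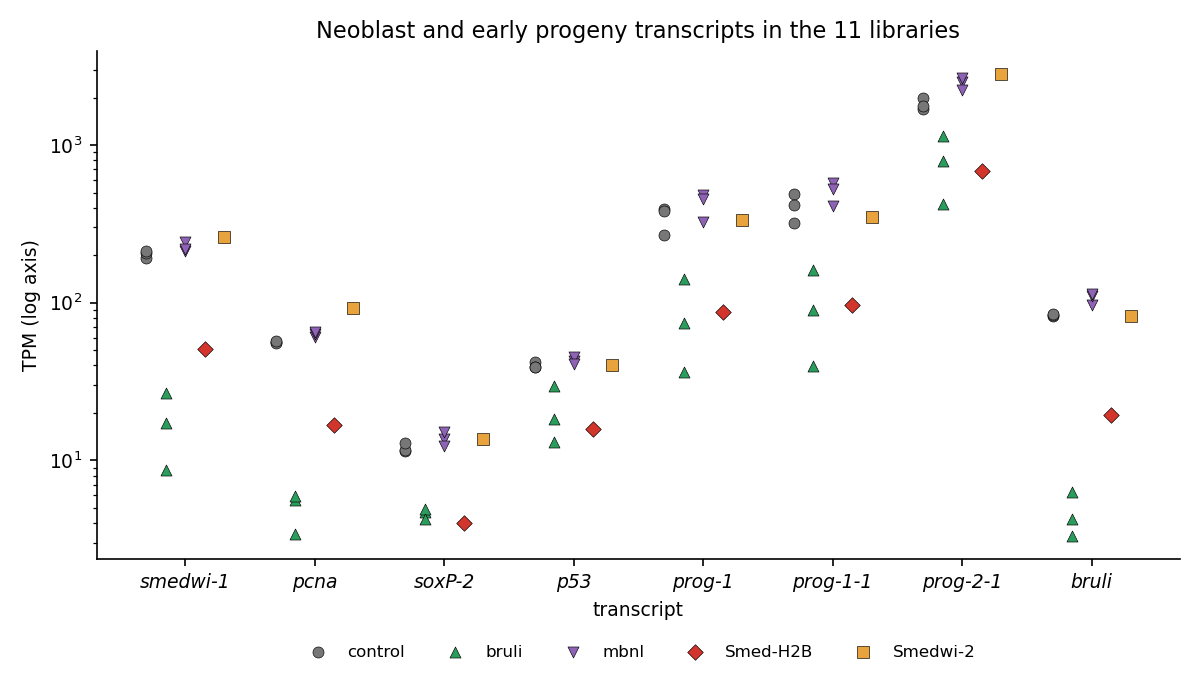
TPM (log axis) of 7 markers and of bruli in each of the 11 libraries, with control in grey, bruli knockdown in green, mbnl knockdown in purple, Smed-H2B knockdown in red and Smedwi-2 knockdown in orange. The Smed-H2B point lies below all 3 control points for all 8 transcripts, and for smedwi-1 and pcna it lies above the 3 bruli points.

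These markers were not lower in every knockdown. In the Smedwi-2 library, compared with the same 3 controls, smedwi-1 was at 260 TPM, pcna at 92.0 TPM and prog-2-1 at 2830 TPM, each above all 3 controls, while prog-1 at 334 TPM, prog-1-1 at 348 TPM and p53 at 40.4 TPM lay within the control range. In bruli worms, whose knockdown targets an RBP of the neoblasts, smedwi-1 was at 26.8, 17.2 and 8.63 TPM and pcna at 5.63, 3.43 and 5.91 TPM at days 20, 25 and 30. The Smed-H2B library stood above all 3 bruli libraries for these 2 genes. For the progeny marker prog-1, bruli worms had 141, 74.4 and 36.6 TPM, and the Smed-H2B value of 87.1 TPM fell between those of days 20 and 25. In the mbnl libraries smedwi-1 was at 212, 242 and 220 TPM. The libraries share their controls, and no difference between knockdowns was tested.

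In whole worms, fewer cells of a type and less RNA per cell cannot be told apart. RBPs had been compared by the study in sorted cells, where X1 is the fraction enriched in dividing neoblasts and Xins that enriched in differentiated cells. The grades used here are ranges of the log2 difference of expression between X1 and Xins. The paper instead judged enrichment of splicing factors against the median of core spliceosome proteins, which the grades do not take into account. Of the 15 kept RBPs that were higher in X1 by 3 or more, 8 were lower after Smed-H2B knockdown and none was higher. Of the 57 between 2 and 3, 15 were lower (26.3%), and of the 102 between 1 and 2, 3 were lower. Of the 69 with similar levels, between -1 and 1, 1 was lower and 1 was higher, and the 41 RBPs higher in Xins by 1 or more gave the same counts. Over all transcripts kept, 3.59% were lower. The median difference from the control mean went from -0.87 through -0.65, -0.46 and -0.20 to 0.15 across the 5 grades, beside 0.02 over all transcripts. In the last grade 23 of the 41 transcripts lay above all 3 controls and 4 below, against 34.4% above and 32.4% below over all transcripts.

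**Figure D3:**
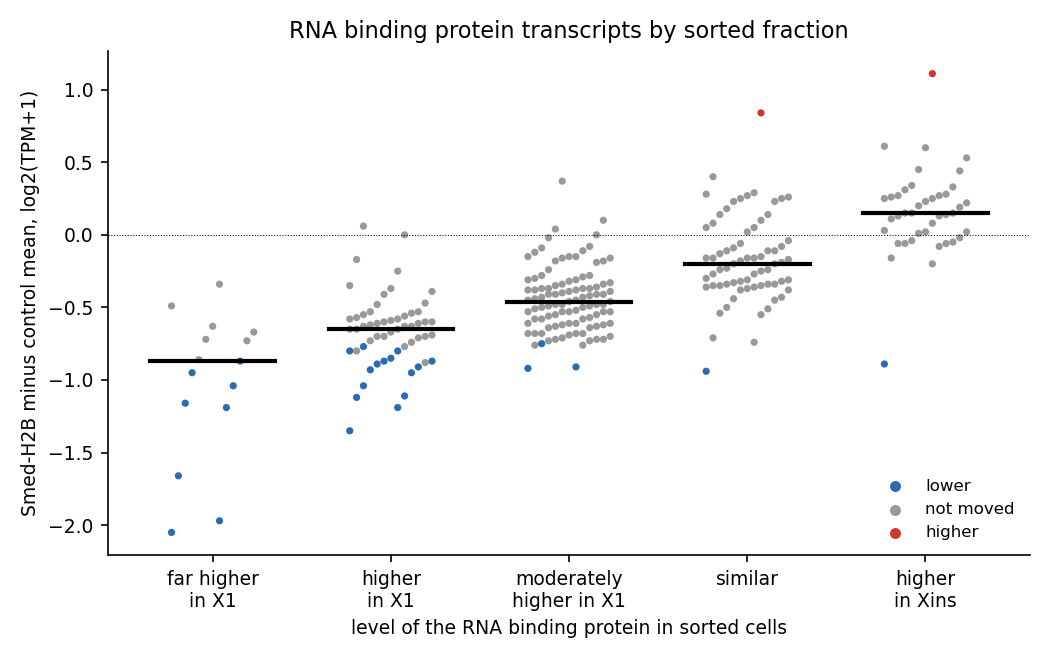
Difference of each RBP transcript from the control mean after Smed-H2B knockdown (vertical axis, log2(TPM+1)), by its grade in sorted cells (horizontal axis). Points are transcripts, blue for lower, red for higher and grey for neither, and the bars are medians, which go from -0.87 in the grade far higher in X1 to 0.15 in the grade higher in Xins.

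bruli itself was the RBP farthest below its controls. bruli (comp2592_c0_seq1), a CELF gene of the neoblasts, was at 82.9, 83.1 and 84.9 TPM in the controls and at 19.4 TPM in the Smed-H2B library, a distance of -2.04 from the range. The control libraries were nearly equal, and the 249 reads after knockdown give an interval of 17.0 to 21.9 TPM. The bruli libraries, in which it is the targeted gene, had 6.33, 3.33 and 4.27 TPM, and the Smedwi-2 library had 82.4 TPM. NUP35 (comp10329_c0_seq1), named for its best human hit, a nuclear pore protein, had 8.73, 9.19 and 8.21 TPM in the controls and 3.35 TPM after Smed-H2B knockdown, from 23 reads.

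All 7 members of the Piwi pathway and germ granule list lay below all 3 controls, and 4 of them were lower by the rule (57.1%), with a median difference of -0.87. Taken over all transcripts kept, 32.4% lay below all controls and 3.59% were lower. The 4 lower members were smedwi-1, a second piwi gene and a pair of vasa-type helicases. The second transcript with PIWIL1 as its best human hit, comp1258_c0_seq1, was at 208, 219 and 224 TPM in the controls and at 105 TPM after knockdown. DDX4 is the human vasa, an RNA helicase of germ granules. Its hit comp1985_c0_seq1 was at 91.2, 90.1 and 89.2 TPM in the controls and at 27.8 TPM in the Smed-H2B library, and the hit comp2082_c0_seq1 was at 66.6, 65.5 and 67.3 TPM and at 35.9 TPM. No control of the 3 transcripts came near the knockdown library, whose distance from the control range was -0.98 for the piwi gene and -1.65 and -0.85 for the 2 helicases. The Tudor proteins hit by TDRD12, TDRD9 and TDRKH, which hold piwi proteins in their granules, differed by -0.65, -0.53 and -0.53 and did not pass the margin. In the Smedwi-2 library the same piwi and vasa transcripts were above their controls, with 268 TPM for comp1258_c0_seq1, 142 TPM for comp1985_c0_seq1 and 107 TPM for comp2082_c0_seq1.

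Among helicases of the DEAD-box and DEAH-box families, 7 of 50 kept were lower (14%) and 2 were higher (4%), the only annotated transcripts that were higher. The median difference was -0.39. The shares over all transcripts kept were 3.59% lower and 1.79% higher. The lower helicases include the vasa-type hits of DDX4 given above. DDX41 (comp13831_c0_seq1), a helicase of the spliceosome, had 9.63, 8.27 and 10 TPM in the controls and 3.04 TPM after knockdown, from 25 reads. DHX37 (comp10340_c0_seq1), a helicase of ribosome assembly, had 13.1, 12 and 11.9 TPM and 5.48 TPM. DDX39B (comp794_c0_seq1), which acts in splicing and mRNA export, had 272, 269 and 284 TPM and 152 TPM. For each of these 3 the knockdown library lay below every control, with distances of -1.20, -1 and -0.82. Another DDX41 hit, comp7181_c0_seq1, was more abundant and was not called, at a distance of -0.02. Another DDX39B hit, comp724_c0_seq1, was not called either, at -0.27. The other direction was taken by a hit of DDX3Y (comp3817_c0_seq1), a translation helicase of the DDX3 type, with 42.4, 48.7 and 49.9 TPM in the controls and 84.5 TPM after knockdown. A hit of DHX8 (comp12329_c0_seq1), named for a helicase that releases spliced mRNA, had 10.3, 11.3 and 8.26 TPM in the controls and 22.4 TPM after knockdown. Both were above all 3 controls in each of the other knockdown libraries too. The DDX3Y hit had 57.8 to 75.1 TPM in bruli, 63.6 to 77.4 TPM in mbnl and 72.0 TPM in Smedwi-2 worms, and the DHX8 hit had 12.9 to 21.3, 16.2 to 19.0 and 25.0 TPM. Once the Smedwi-2 library was counted into the range neither passed the margin. DHX8 is the best hit of several planarian transcripts, and comp8001_c0_seq1, another of them, was lower, at 19.5, 19.9 and 16.7 TPM in the controls and 9.15 TPM after knockdown.

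Of the 77 core spliceosome proteins, 72 lay below all 3 controls after Smed-H2B knockdown, and 11 (14.3%) were lower by the rule, with a median difference of -0.58. Over all transcripts kept 32.4% lay below all controls and 3.59% were lower by the rule. The list summed to 2805 TPM in the Smed-H2B library and to 4222 to 4354 TPM in the controls. K12834 (comp2656_c0_seq1), the KEGG number of PHF5A, a subunit of the SF3b complex that binds the branch site, had 28.7, 26.1 and 26.1 TPM in the controls and 11.2 TPM after knockdown. K12845 (comp1928_c0_seq1), SNU13, a protein of the U4 snRNP, had 52.4, 46.7 and 43.2 TPM and 20.4 TPM. K12852 (comp4747_c0_seq1), EFTUD2, the GTPase of the U5 snRNP, had 26.3, 24.3 and 26.2 TPM and 12.2 TPM. Their distances from the control range were -1.15, -1.04 and -0.94 on the log2 scale. K12846 (comp6062_c0_seq1), SNRNP27 of the tri-snRNP, was lower as well, at 15.7, 18.8 and 21.2 TPM in the controls and 8.01 TPM after knockdown, though from 29 reads. No member of the list was higher, and its largest positive difference was 0.08.

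The rings of Sm and LSm proteins that sit on the snRNAs, with the other snRNP proteins, gave 3 lower transcripts of 14 (21.4%), and 13 of the 14 lay below all controls. For all transcripts kept these shares were 3.59% and 32.4%. Most members, SNRPN and SNRPF among them, are also counted in the core spliceosome list above. The shares of this list thus largely repeat values already given there. SNRPN (comp887_c0_seq1), an Sm protein, had 165, 130 and 152 TPM in the controls and 64.5 TPM after Smed-H2B knockdown. SNRPF (comp1056_c0_seq1), another Sm protein, had 95.1, 95.3 and 96.6 TPM and 55.8 TPM. SNRPA (comp2444_c0_seq1), the U1 A protein, had 30.0, 28.2 and 29.3 TPM and 16.3 TPM. The controls of SNRPF and SNRPA were nearly equal, and both transcripts had a distance of -0.76 from their range. With each library centred on its median the distance of both was -0.69, and neither was called. Another SNRPA hit, comp2274_c0_seq1, was not called without centring, at a distance of -0.15 from its control range.

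The hnRNP proteins and the SR and TRA2 proteins take part in the choice of exons. All 13 hnRNP proteins and all 15 SR and TRA2 proteins lay below all 3 controls, with median differences of -0.58 and -0.47. Only 2 (15.4%) and 1 (6.67%) of them passed the margin. Among all transcripts kept, 32.4% lay below all controls and 3.59% were lower by the rule. HNRNPL (comp1327_c0_seq1), which binds CA-rich RNA, had 148, 135 and 148 TPM in the controls and 65.4 TPM after knockdown. HNRNPF (comp1957_c0_seq1), which binds G-rich RNA, had 111, 113 and 115 TPM and 57.8 TPM. SRSF10 (comp661_c0_seq1), an SR protein, had 52.3, 43.9 and 42.4 TPM and 24.1 TPM. The knockdown library lay 2.19-fold, 1.95-fold and 1.92-fold below the control mean of these 3, and no control overlapped it. Other hits of HNRNPL, comp5442_c1_seq1 and comp7465_c0_seq1, were not called, at distances of -0.27 and -0.49. Another hit of SRSF10, comp1695_c0_seq1, was not called, at -0.53. TIA1 (comp2139_c0_seq1), a U-rich RNA binding protein that also joins stress granules, was the lower 1 of 6 in its group, with 53.4, 56.6 and 58.8 TPM in the controls and 31.8 TPM after knockdown.

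Of the 20 kept splicing regulators with planarian names, 3 were lower (15%) and none was higher, with a median difference of 0.03. The shares over all transcripts kept were 3.59% lower and 1.79% higher. Besides bruli the 3 lower ones were rbfox-1 and ptbp-2. rbfox-1 (comp6567_c0_seq1) had 16.3, 16.5 and 18.7 TPM in the controls and 7.4 TPM in the Smed-H2B library, from 71 reads. ptbp-2 (comp2799_c0_seq1), a polypyrimidine tract binding protein gene, had 98.2, 101 and 107 TPM and 54.7 TPM. Its paralogs ptbp-1 and ptbp-3 differed by -0.65 and -0.58 and did not pass the margin, and ptbp-4 differed by 0.44. The paralogs rbfox-2 and rbfox-3 differed by 0.14 and 0.27. mbnl-1 (comp2838_c0_seq1), whose product opposes bruli in splicing, was at 50.2, 53 and 50.7 TPM in the controls and 49.0 TPM after knockdown, and the other mbnl genes, the celf, nova and esrp genes differed by -0.08 to 0.53 where they were kept. The rbfox and ptbp families held lower members and members that did not pass the margin, and none of the mbnl, nova and esrp genes passed it. rbfox-1 was the only lower transcript among the 13 neural-type RBPs kept, whose median difference was 0.14, and its X1 to Xins grade is that between 2 and 3. Measured against the core spliceosome, the paper counts rbfox-1, ptbp-1 and ptbp-2 among factors without enrichment in X1.

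In the remaining RNA binding groups few transcripts passed the margin. None of 7 Argonaute and miRNA processing proteins and none of 4 RecQ helicases kept passed the margin, with medians of -0.20 and -0.31. Of all transcripts kept, 3.59% were lower and 1.79% higher, so the lack of a call does not set such small lists apart. Of 11 translation factors and PABPC proteins, EIF4A3 (comp737_c0_seq1), the helicase of the exon junction complex, was lower, with 265, 265 and 272 TPM in the controls and 159 TPM after Smed-H2B knockdown. It lost the call once the Smedwi-2 library, at 203 TPM, was counted into the control range. Another EIF4A3 hit, comp4100_c0_seq1, was not called, at a distance of -0.28. None of the 17 kept genes with conserved stem cell exons moved, and their median difference was 0.09. At the shares over all transcripts, this does not set these genes apart either. Their values are levels of whole transcripts, and exon use was not measured here. The RBP of unknown name comp892_c0_seq1 had 416, 399 and 425 TPM in the controls and 218 TPM after knockdown, and ABT1 (comp1929_c0_seq1) had 123, 139 and 131 TPM and 68.1 TPM. Both stood nearly as low in the Smedwi-2 library, at 245 and 71.3 TPM. Among RBPs higher in Xins, the lower one was SF3B6 (comp11998_c0_seq1), a branch site protein, at 6.21, 5.72 and 7.98 TPM in the controls and 3.10 TPM after knockdown, and it rests on 8 reads with an interval of 1.34 to 6.11 TPM that reaches the controls.

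**Figure D4:**
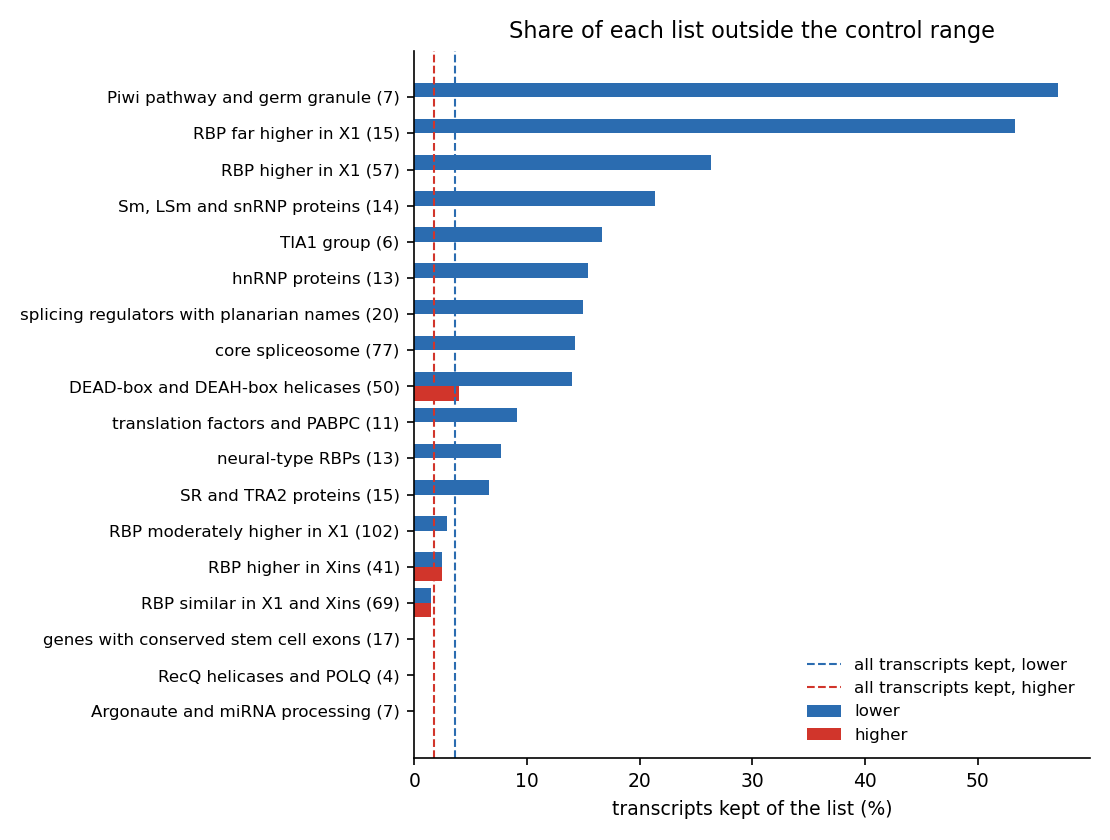
Share of the kept transcripts of each list (number in brackets) that were lower (blue bars) or higher (red bars) after Smed-H2B knockdown, in percent. The dashed lines mark the shares over all transcripts kept, 3.59% lower and 1.79% higher. Only lists with at least 4 kept transcripts are drawn, and among these the share of lower transcripts is 57.1% for the Piwi pathway, 53.3% for the RBPs far higher in X1 and 0% for 3 lists.

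Of the 557 lower transcripts 42 belonged to the 362 annotated transcripts kept, and of the 278 higher ones 2 did, so most of what moved has no name here. Nearest to the threshold, DDX55 and SF3B6 were called lower, both at -0.71, and SF3B4 and SRSF4 were not called, both at -0.70. DDX55 rests on 10 reads, with an interval of 1.63 to 6.26 TPM that reaches its lowest control at 6.19 TPM. On the other side DDX3Y was called higher at 0.75 and MEX3A was not called at 0.57. Set beside the bruli libraries, 25 of the 42 lower annotated transcripts stood below all 3 bruli values, 12 within their range and 5 above. These 42 were picked by a low Smed-H2B value, which favours a place below, and no share over all transcripts was counted. The 5 above were bruli, smedwi-1, pcna, the second PIWIL1 hit and SNRPF. SNRPF was nearly tied, at 55.8 TPM beside at most 55.4 TPM in bruli worms. Those below included the vasa-type comp1985_c0_seq1, which bruli worms held at 36.7 to 45.3 TPM, as well as HNRNPL, held at 71.0 to 93.3 TPM, and SNRPN, held at 76.0 to 99.1 TPM.

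**Figure D5:**
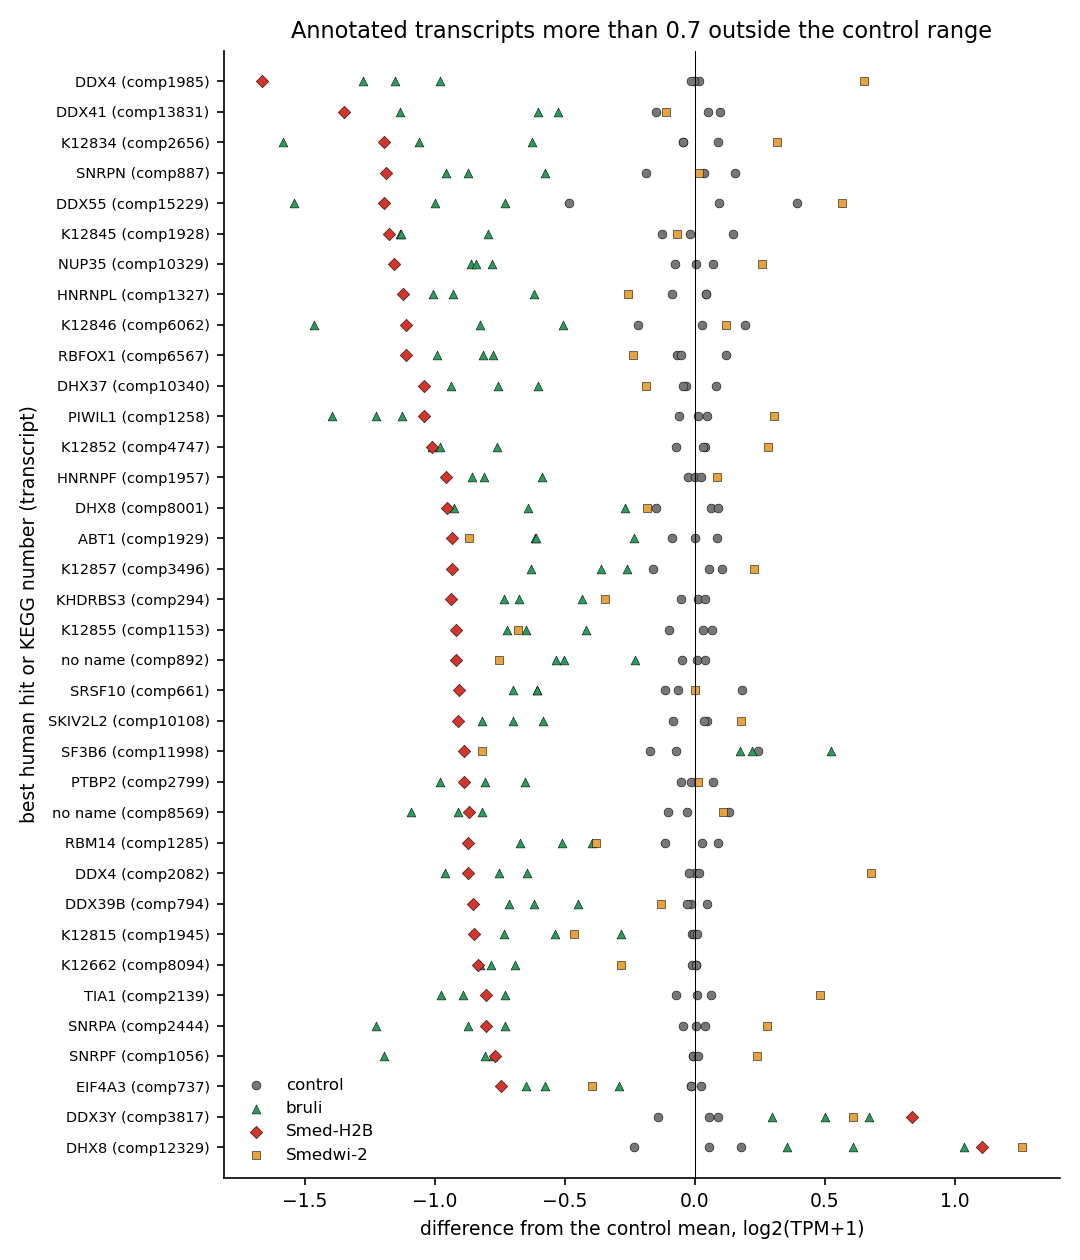
Difference from the control mean (horizontal axis, log2(TPM+1)) of the annotated transcripts more than 0.7 outside the control range, other than the markers and bruli, for the 3 control, 3 bruli, 1 Smed-H2B and 1 Smedwi-2 libraries. The Smed-H2B point lies left of every control point for all but DDX3Y and DHX8 (comp12329), while the Smedwi-2 point lies on either side of the controls.

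The transcripts with a mean log2(TPM+1) above 3 that lay farthest from the control range had no annotation. comp2520_c0_seq1 was at 72.1, 73.3 and 80.5 TPM in the controls and at 8.52 TPM after Smed-H2B knockdown, a distance of -2.94, with 34 reads. The other knockdown libraries held it nearer to the controls. In bruli worms it had 57.8 to 63.2 TPM, below every control. It had 88.2 to 96.2 TPM in mbnl worms, above every control, and 78.7 TPM in Smedwi-2 worms. It was the only transcript described here that lay outside the range of all 10 other libraries by more than 0.7, as did 12 lower and 4 higher transcripts in all. comp648_c0_seq1 had 420, 362 and 376 TPM in the controls and 55.7 TPM after knockdown, and bruli worms had 122, 53.7 and 27.2 TPM. On the higher side comp79_c0_seq1 was at 10.9, 3.04 and 4.89 TPM in the controls and at 136 TPM after knockdown. comp122_c1_seq1 was at 5.83, 1.25 and 5.75 TPM and at 64.2 TPM. Their controls were scattered, and the knockdown library stood 21.7-fold and 15-fold above the control mean.

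The 2 sides also differed in how they stood beside the Smedwi-2 library. With that library counted into the control range, 401 of the 557 lower transcripts (72.0%) were still more than 0.7 outside it, and 61 of the 278 higher ones (21.9%). comp79_c0_seq1 and comp122_c1_seq1 were among those that were not, at 220 and 65.8 TPM in the Smedwi-2 library. Both libraries were set against the same controls, and no share over all transcripts was counted. The median control range was 0.20 for the lower and 0.36 for the higher transcripts. Both libraries also lack a stated day. The part of these in the 2 shares was not tested. By the same rule against the same controls, the Smedwi-2 library itself had 565 lower (3.63%) and 473 higher (3.04%) transcripts. The bruli library of day 20 had 261 lower (1.68%) and 24 higher (0.155%), that of day 25 had 434 lower (2.80%) and 194 higher (1.25%), and that of day 30 had 683 lower (4.43%) and 186 higher (1.21%). In mbnl worms there were 121 lower (0.78%) and 50 higher (0.322%) at day 20, 118 (0.754%) and 176 (1.12%) at day 25, and 149 (0.955%) and 212 (1.36%) at day 30. The highest of the 3 controls was that of day 20 for 50.4% of the higher transcripts, that of day 25 for 30.6% and that of day 30 for 19.1%, and over all transcripts kept these shares were 24.9%, 40% and 35.1%. The day of the Smed-H2B library is not stated, and its part in these differences was not tested.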

How the data were processed

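The authors trimmed the reads, removed ribosomal reads in silico, mapped the rest to a planarian transcriptome and counted reads per transcript; the submitters' processing notes name Bowtie2 2.1.0, HTSeq 0.6.1p1 and CASAVA 1.8.2. The deposited TPM values sum to 1000000 in each library, and how counts became TPM is not given in the sources used here. The 3 deposited control columns were used as they stand.

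log2(TPM+1) was computed with a pseudocount of 1, and 15513 of 26562 transcripts with a mean above 1.5 over the 4 libraries were kept. A transcript was called when the Smed-H2B library lay more than 0.7 outside the range of the 3 controls. Whole reads were recovered as the smallest read numbers whose ratios fit all 11 libraries to within 0.01 read, and 95% exact Poisson intervals were computed from them. These cover counting error only. The rule and the recovery were also run on simulated data. For the rule these held only random spread and set changes, with no difference of day between libraries. Python 3.11.15, numpy 2.4.6, pandas 2.3.3, scipy 1.17.1 and matplotlib 3.10.9 were used.

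Best human hits, KEGG numbers and the X1 to Xins differences behind the grades come from the study's tables of RBPs and spliceosome proteins. The transcript identifiers of the 7 markers come from its marker figure, where they had been read from an image. The lists overlap. No reference genome or annotation was used, so no sequences are shown. The named transcripts are the 7 markers, the splicing regulators that moved, up to 5 moved members of each list, the 10 annotated ones farthest out in each direction and up to 2 without annotation in each direction with a mean above 3. Others with values (comp8001_c0_seq1, mbnl-1, DDX55, SF3B4, SRSF4, MEX3A and relatives of named genes) were chosen after their values were seen. The members and lists were chosen with earlier results of these data known. The alternatives were pseudocounts of 0.5 and 5, 2 other filters, quantile normalization, median centring, other margins and ranges, and leaving out each control. A minimum of 50 recovered reads was added after seeing the data.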

Additional observations from a re-analysis of the deposited data

How the results depend on the processing

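No paired analysis was possible because there is 1 Smed-H2B library, it has no stated day to match with a control, and no test was made. Beside 557 lower and 278 higher transcripts, the counts were 269 and 162 with a pseudocount of 5, 1171 and 632 with a margin of 0.5, 220 and 89 with a margin of 1, and 975 and 609 against the control mean. Without a filter 614 were higher, and the share of lower calls went from 66.7% to 54.6%. With Smedwi-2 in the range 61 were higher and the share was 86.8%. Against all 10 other libraries 12 were lower and 4 higher. Without 1 control 620 to 878 were lower and 334 to 429 higher, with 878 without the control of day 20 and 429 without that of day 25. Of the RBPs far higher in X1, 5 were lower with a pseudocount of 5, 4 with a margin of 1 and 0 against all 10 others. Of the RBPs higher in X1, 37 were lower with a margin of 0.5, 3 with a margin of 1, 24 against the control mean and 0 against all 10. Of the core spliceosome, 7 were lower with a pseudocount of 5, 39 and 2 with margins of 0.5 and 1, 22 against the control mean, 0 against all 10 and 11 to 17 without 1 control, with 17 without that of day 30. Of the Piwi list, 2 were lower with a margin of 1 and 0 against all 10. Fewer libraries or a wider margin change the calls by construction, and other causes were not tested. No named transcript changed direction. Of the 38 named, 30 kept their call with Smedwi-2 in the range, 34 with median centring and 1 against all 10 others. With a minimum of 50 reads 392 were lower and 210 higher.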
